A study of Saccharomyces cerevisiae with 2 samples.

Results

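The nuclear genes of the respiratory chain and the ATP synthase were followed in 2 yeast strains. The 36 genes were taken as a list of symbols, by their place in these complexes: 3 NADH dehydrogenases, 9 subunits of complex III, the 2 cytochromes c, 9 subunits of complex IV and 13 subunits or inhibitors of the ATP synthase. All 36 were listed in both tables, among 5699 genes in all.

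The study set out to compare the transcription profiles of *S. cerevisiae* strains. ZK2, which the labels call a bioethanol strain and for which they give no genotype, was compared with BYZ1, a laboratory diploid derived from S288c. BYZ1 is MATa/MATalpha and carries his3delta1, leu2delta0 and ura3delta0 on both homologs and lys2delta0 and met15delta0 on a single homolog. A region of chromosome 4 flanked by Ty elements is amplified in BYZ1. Genes in that region need not be equal in dose in ZK2 and BYZ1, and its part in the ratios was not tested. Both strains were grown in 25 mL of YPD, a rich glucose medium, from an OD600 of 0.05, and poly(A) RNA of early-stationary-phase cells was sequenced on an Illumina HiSeq instrument as 1 library per strain. By the labels the medium of ZK2 held 20 g/L of glucose, as much peptone and 10 g/L of yeast extract, and that of BYZ1 held 2 g/L of glucose, as much peptone and 1 g/L of yeast extract. The paper's methods describe a single YPD recipe, which is that of the ZK2 label, so the label of BYZ1 may be in error. With 1 library per strain, no difference has a replicate check, and strain, culture, library and any difference in medium cannot be told apart.

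Budding yeast has no proton-pumping complex I. NADH made in the matrix is oxidized by the internal dehydrogenase Ndi1, and cytosolic NADH by the external enzymes Nde1 and Nde2, all of which pass electrons to ubiquinone. Complex III passes them on to cytochrome c, complex IV to oxygen, and the ATP synthase uses the resulting proton gradient. Glucose represses many of these genes, and they are known to be induced through the Hap2/3/4/5 complex, which binds the CCAAT box, as glucose runs out. In textbook accounts *COX5B* and *CYC7* are the hypoxic isoforms of *COX5A* and *CYC1*, held down in air by the repressor Rox1.

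The libraries held 4571043 uniquely mapped gene reads in ZK2 and 4687047 in BYZ1, with medians of 204 and 230 reads per listed gene. *URA3* had 123 reads in ZK2 and no read in BYZ1, which allows up to 0.796 RPKM there (3 reads). BYZ1 lacks the gene by its genotype. Levels are given as RPKM, reads scaled by coding length in kilobases and by the total of gene reads, and differences as log2 of the ratio of ZK2 to BYZ1 after adding 1 RPKM to each. Ranges in parentheses after a ratio are exact 95% intervals of the read counts, which cover counting error only and neither culture-to-culture spread nor PCR copies. The paper's methods give 3 individual cultures for the RNA of each sample, but do not name ZK2. In RNA of whole cultures, a lower level in every cell and a lower number of expressing cells cannot be told apart.

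Most of the 36 genes were highly expressed in both strains and, as a group, the 36 differed little between the strains. Their median level was 913 RPKM in ZK2 and 914 RPKM in BYZ1, against medians of 33.9 and 37.2 RPKM over the genes listed in ZK2 and in BYZ1. They took 2.70% of all gene reads in ZK2 and 2.78% in BYZ1. In ZK2 34 of them stood in the top 10% of genes by level, and in BYZ1 32 did. *CYC7* and *COX5B* were the 2 outside the top 10% in ZK2, and *CYC1* and *ATP20* joined them in BYZ1. *COX5B* lay below the median gene in both strains, and *CYC7* did in BYZ1.

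**Figure D1:**
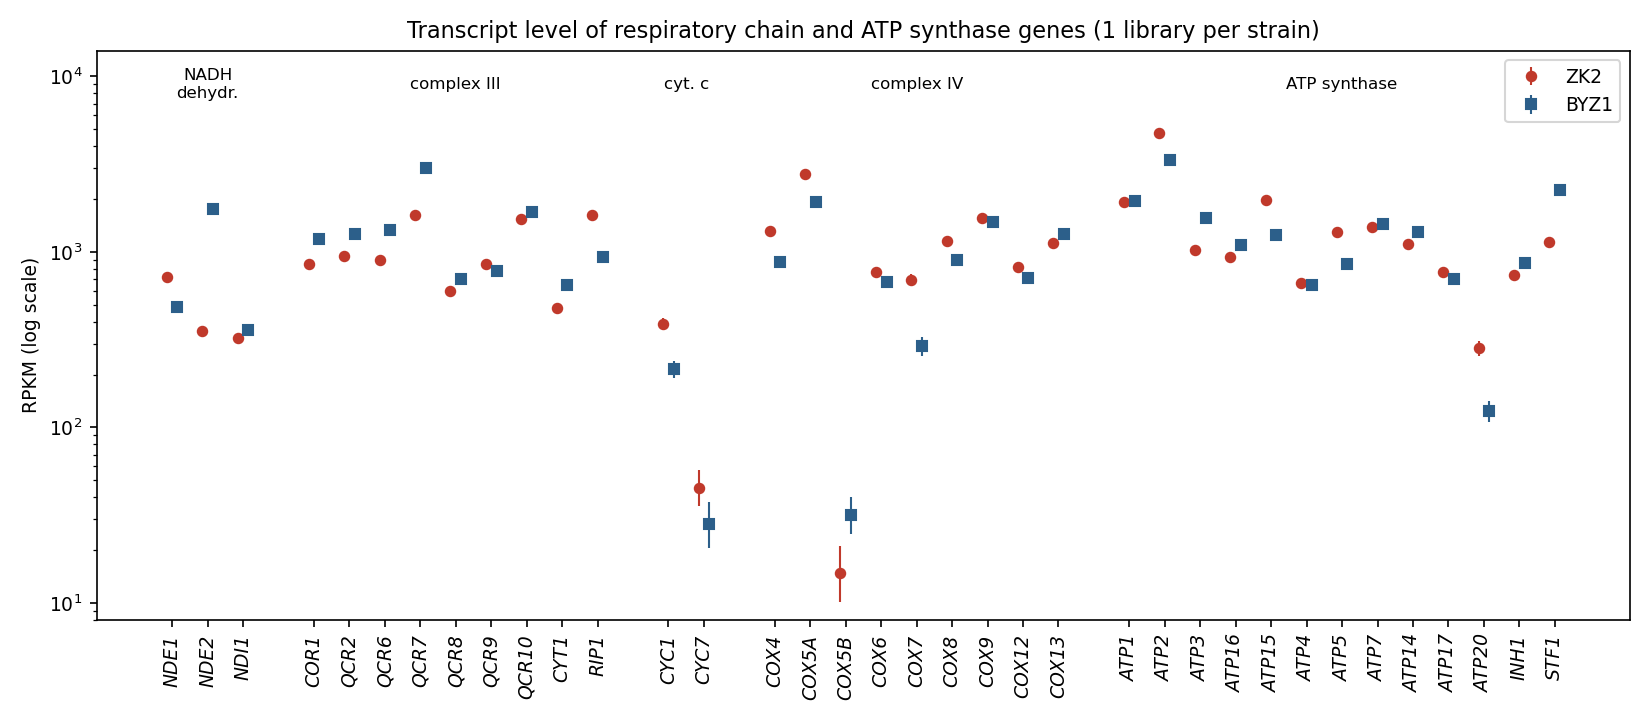
RPKM of the 36 genes on a log scale, grouped by complex, in ZK2 (red circles) and BYZ1 (blue squares), 1 library per strain. Bars are exact Poisson 95% intervals of the read counts. Most genes lie between about the levels of *CYC1* and *ATP2*, and the hypoxic isoforms *CYC7* and *COX5B* lie far below the rest at 45.4 and 14.9 RPKM in ZK2 and 28.1 and 31.8 RPKM in BYZ1.

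Their median log2 ratio of ZK2 to BYZ1 was 0.01 (quartiles -0.28 and 0.55), with 18 genes above 0 and 18 below. The 5080 genes that reached 10 RPKM in either library, called all genes below, had a median of -0.17 (quartiles -0.60 and 0.33), with 3038 below 0, and 22 of the 36 lay above that median. At a fold of 2 or more, 2 of the 36 were higher in ZK2, where 7.91% of all genes tested were, and 2 were lower, where 10.3% of all genes were. The higher pair was *COX7* and *ATP20* and the lower pair *NDE2* and *COX5B*. At a fold of 1.5 or more, 8 were higher (16.1% of all genes) and 5 were lower (26.0% of all genes). Libraries scaled by TMM, a normalization that assumes most genes do not differ, moved the median of all genes by 0.18 and the count over all genes to 536 higher and 339 lower, beside 402 and 524 without it. On that scale *COX5B* no longer passed the 2-fold limit and *CYC1* did.

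**Figure D2:**
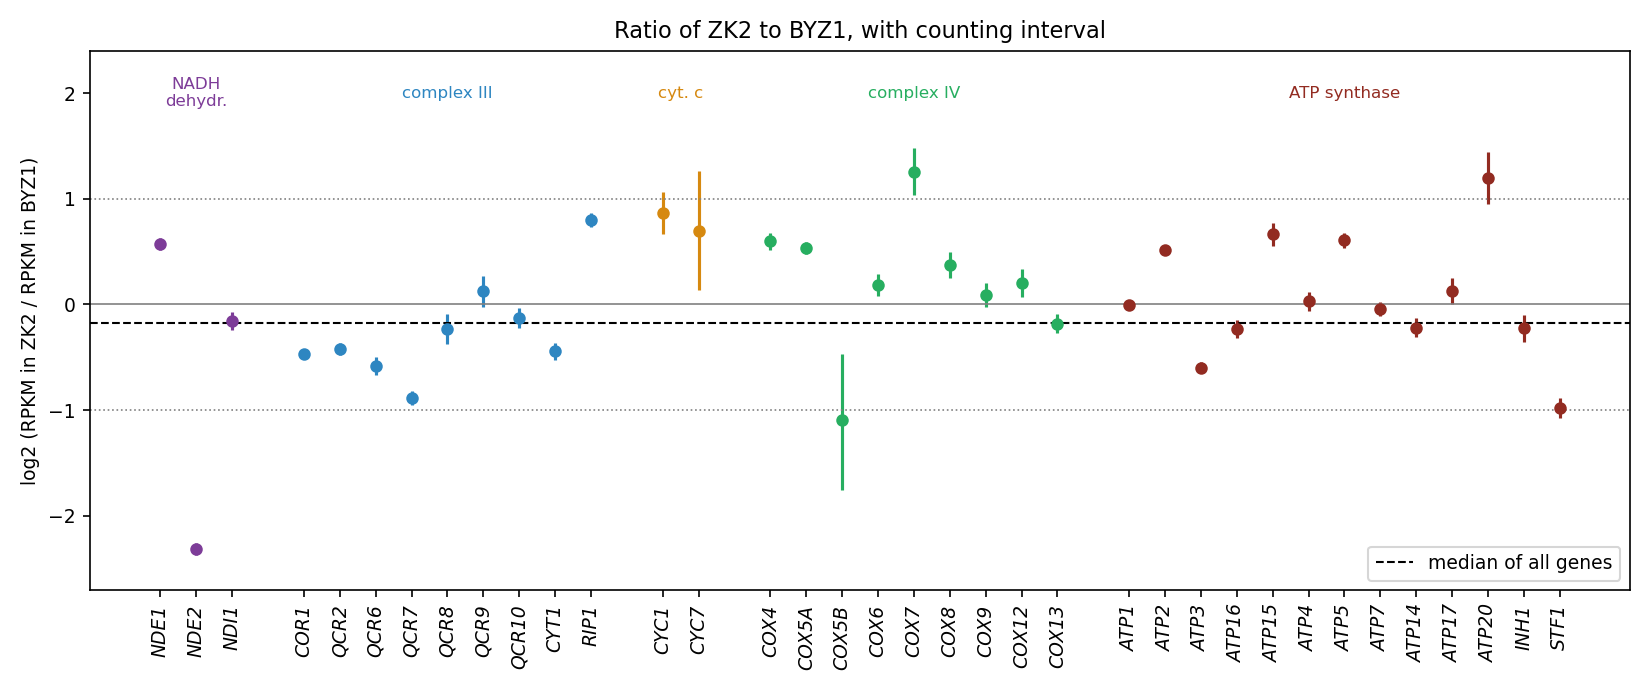
Log2 of the RPKM ratio of ZK2 to BYZ1 for each of the 36 genes, with exact 95% intervals of the read counts and no pseudocount. The dashed line is the median of all genes and the dotted lines mark a fold of 2. *NDE2* lies lowest and *COX7* highest, and 7 of the 9 genes of complex III lie below 0.

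The NADH dehydrogenases held the largest difference of the list. *NDE2* had 354 RPKM in ZK2 (2651 reads), against 1759 RPKM in BYZ1 (13501 reads). *NDE1*, the other external enzyme, had 718 RPKM in ZK2 and 483 RPKM in BYZ1. *NDE2* thus stood at a ratio of ZK2 to BYZ1 of 0.201 (0.193 to 0.210), a log2 ratio of -2.31, or -2.14 relative to the median of all genes. *NDE1* was on the other side, at a ratio of 1.49 (1.43 to 1.55).

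The order of the 2 external enzymes was reversed between the strains. In ZK2 there were 2.03 *NDE1* transcripts per *NDE2* transcript (1.94 to 2.12), against 0.275 in BYZ1 (0.265 to 0.285). Library scale and gene length cancel in the ratio of these ratios, which was 7.39 (6.96 to 7.84). *NDE1* made up 67.0% of the summed level of both genes in ZK2 and 21.5% in BYZ1. That sum was 1072 RPKM in ZK2 and 2241 RPKM in BYZ1, so that the transcripts of the external enzymes together were lower in ZK2. The internal enzyme gene *NDI1* had 322 RPKM in ZK2 and 359 RPKM in BYZ1, and was the lowest of the 3 genes in both strains. Its log2 ratio was -0.16, close to that of the median gene, and its sign changed on the TMM scale (0.02).

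*NDE1* lies on chromosome 13 (554792-556474, minus strand) and *NDE2* on chromosome 4 (303211-304848, plus strand) of sacCer2, the build named in the labels. Their upstream sequences are shown because the pair diverged most between the strains. Each line is the 250 bases before the start codon in the reference strain S288c, read 5′ to 3′ on the gene's strand from RefSeq's R64 genome, at chr13:556476-556725 (minus strand) for *NDE1* and chr4:302961-303210 (plus strand) for *NDE2*. Capitals mark CCAAT boxes and the ATTGTT core of the Rox1 motif on either strand, and the reference need not match ZK2.
NDE1: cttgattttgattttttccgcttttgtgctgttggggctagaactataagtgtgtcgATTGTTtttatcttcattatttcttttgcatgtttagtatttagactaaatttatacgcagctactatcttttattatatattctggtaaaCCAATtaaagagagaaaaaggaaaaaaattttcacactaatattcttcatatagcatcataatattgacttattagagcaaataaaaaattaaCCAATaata
NDE2: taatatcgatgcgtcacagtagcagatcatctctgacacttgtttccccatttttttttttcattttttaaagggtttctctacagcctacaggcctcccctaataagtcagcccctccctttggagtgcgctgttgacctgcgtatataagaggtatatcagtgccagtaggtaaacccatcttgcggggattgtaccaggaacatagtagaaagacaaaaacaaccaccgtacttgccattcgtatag
The *NDE1* window held CCAAT at 102 and 9 bases before the start codon and ATTGTT at 193 bases, counted to the first base of the motif. The *NDE2* window held none of these letters.

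Complex III had a median log2 ratio of -0.42, below the -0.17 of all genes. Of its 9 genes 7 were below 0 and 2 above, where 3038 of all 5080 genes were below 0, and 6 of the 9 were below the median of all genes. They took 0.544% of gene reads in ZK2 and 0.673% in BYZ1. None reached a fold of 2. On the TMM scale the median was -0.24 and *QCR10* changed sign, which left 6 below 0.

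The subunits at the low end included the small structural and the core proteins. *QCR7*, a small subunit on the matrix side, had 1627 RPKM in ZK2 and 2998 RPKM in BYZ1, at a ratio of 0.543 (0.518 to 0.568). *QCR6*, the acidic hinge protein, had 894 RPKM in ZK2 and 1341 RPKM in BYZ1. The core subunit genes lay on the same side: *COR1* had 854 RPKM in ZK2 and 1181 RPKM in BYZ1, and *QCR2* 946 RPKM in ZK2 and 1267 RPKM in BYZ1. *CYT1*, which encodes cytochrome c1, had 479 RPKM in ZK2 and 651 RPKM in BYZ1. The log2 ratios of *QCR6*, *COR1*, *CYT1* and *QCR2* spanned -0.58 to -0.42.

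The remaining small subunits differed less. *QCR8* had 596 RPKM in ZK2 and 700 RPKM in BYZ1, a log2 ratio of -0.23. *QCR10* had 1539 RPKM in ZK2 and 1681 RPKM in BYZ1, a log2 ratio of -0.13. *QCR9* had 854 RPKM in ZK2 and 783 RPKM in BYZ1, and the interval of its ratio included 1 (0.985 to 1.21).

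*RIP1* stood apart from the other subunits of the complex. It encodes the Rieske iron-sulfur protein, which is inserted into the complex as one of its last subunits. It had 1616 RPKM in ZK2 (4786 reads) and 931 RPKM in BYZ1 (2827 reads), a ratio of 1.74 (1.66 to 1.82) and a log2 ratio of 0.80. In ZK2 the order of levels began with *QCR7*, *RIP1* and *QCR10*, whose neighbouring intervals overlapped. In BYZ1 *RIP1* came after *QCR7*, *QCR10*, *QCR6*, *QCR2* and *COR1*. *QCR7* was the highest and *CYT1* the lowest of the complex in both strains, although in BYZ1 *CYT1* was not separated from *QCR8*.

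Both cytochrome c genes were higher in ZK2, by less than a fold of 2. *CYC1*, the main isoform in air, had 390 RPKM in ZK2 (588 reads) and 215 RPKM in BYZ1 (332 reads). Its ratio was 1.82 (1.58 to 2.08), and its log2 ratio of 0.86 was 1.03 above the median of all genes. *CYC7*, the hypoxic isoform, had 45.4 RPKM in ZK2 (71 reads) and 28.1 RPKM in BYZ1 (45 reads). Its ratio of 1.62 carried a wide interval (1.10 to 2.41). The balance of the 2 isoforms could not be told apart between the strains within counting error: *CYC1* stood 8.58 times above *CYC7* in ZK2 (6.70 to 11.1) and 7.65 times in BYZ1 (5.59 to 10.7), and the ratio of these ratios was 1.12 (0.736 to 1.70). A difference within that interval was not detectable at this depth. *CYC7* was 10.4% of the summed level in ZK2 and 11.6% in BYZ1.

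Complex IV had a median log2 ratio of 0.20, above that of all genes. Of its 9 nuclear genes 7 were above 0 and 2 below, where 2042 of all 5080 genes were above 0. They took 0.358% of gene reads in ZK2 and 0.282% in BYZ1. The core subunits that carry the hemes and copper are encoded in mitochondrial DNA and are not among these genes.

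*COX7*, which encodes the small subunit VII, showed the largest ratio of all 36 genes. It had 691 RPKM in ZK2 (578 reads) and 289 RPKM in BYZ1 (248 reads). Its ratio was 2.39 (2.06 to 2.78), a log2 ratio of 1.25. In BYZ1 it stood well below *COX6*, and in ZK2 the intervals of the 2 genes overlapped. *COX4*, which encodes subunit IV, had 1319 RPKM in ZK2 and 873 RPKM in BYZ1, a ratio of 1.51 (1.43 to 1.60). *COX8*, another small subunit, had 1160 RPKM in ZK2 and 898 RPKM in BYZ1, a log2 ratio of 0.37.

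The other subunits lay near a ratio of 1. *COX6* had 772 RPKM in ZK2 and 678 RPKM in BYZ1, and *COX12*, whose product faces the intermembrane space, had 821 RPKM in ZK2 and 713 RPKM in BYZ1. Their log2 ratios were 0.19 and 0.20. *COX9* had 1564 RPKM in ZK2 and 1471 RPKM in BYZ1, with an interval that included 1 (0.983 to 1.15). *COX13* had 1119 RPKM in ZK2 and 1269 RPKM in BYZ1, a log2 ratio of -0.18, close to the -0.17 of the median gene.

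Subunit V of complex IV is encoded by *COX5A* or *COX5B*, and these lay on opposite sides of a ratio of 1. *COX5A*, the isoform used in air, was the highest complex IV gene in both strains, with 2783 RPKM in ZK2 (5878 reads) and 1919 RPKM in BYZ1 (4155 reads). *COX5B*, the hypoxic isoform, was the lowest, with 14.9 RPKM in ZK2 (31 reads) and 31.8 RPKM in BYZ1 (68 reads). The ratio of ZK2 to BYZ1 was 1.45 for *COX5A* (1.39 to 1.51) and 0.467 for *COX5B* (0.295 to 0.725). *COX5B* had a log2 ratio of -1.05, and its 2-fold difference did not hold on the TMM scale or with 5 RPKM added instead of 1.

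In ZK2 *COX5A* was 187 times the level of *COX5B* (132 to 276), against 60.3 times in BYZ1 (47.5 to 77.8), and the ratio of these ratios was 3.10 (2.00 to 4.92). *COX5B* thus made up 0.531% of the summed level in ZK2 and 1.63% in BYZ1. In both strains nearly all subunit V transcript came from *COX5A*, and the sum was 2798 RPKM in ZK2 and 1951 RPKM in BYZ1. Reads that matched both genes of a pair would have been left out, since the tables count uniquely mapped reads only.

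**Figure D3:**
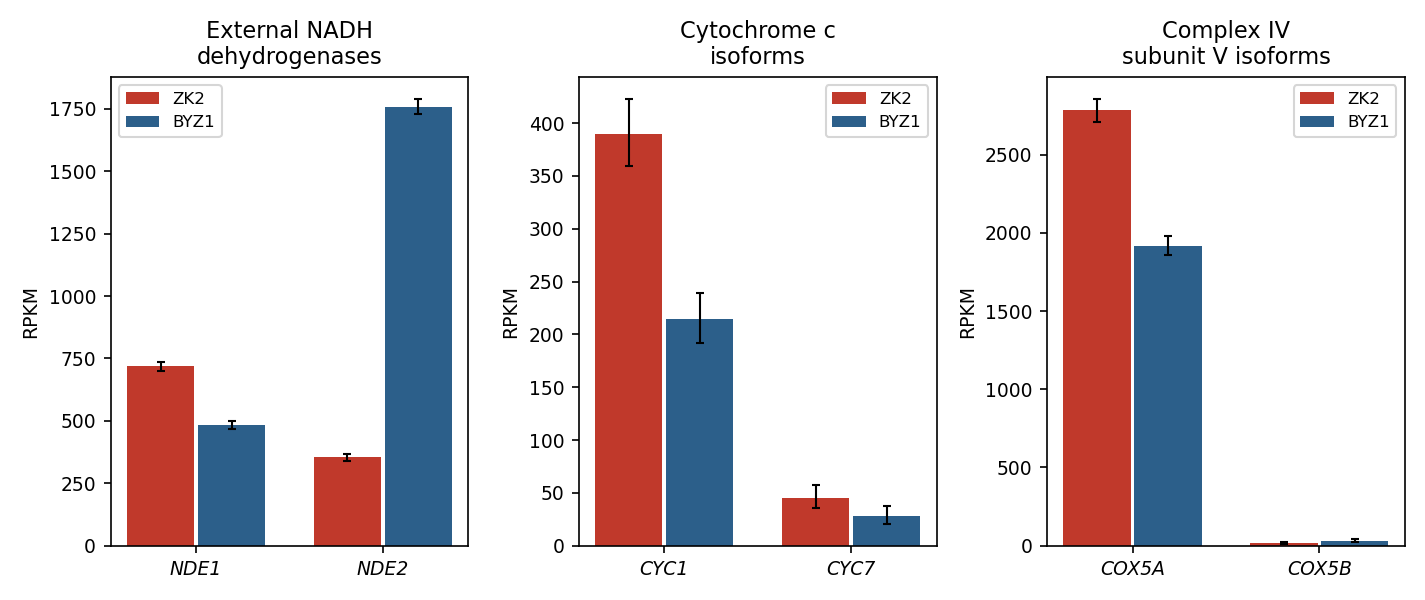
RPKM of the 3 isoform pairs in ZK2 (red, left bar of each pair) and BYZ1 (blue, right bar), from 0, with exact Poisson 95% intervals of the read counts. *NDE1* exceeds *NDE2* in ZK2 and *NDE2* exceeds *NDE1* in BYZ1, while *CYC1* and *COX5A* exceed their partners in both strains.

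The upstream sequences of *COX7* and the subunit V genes are shown because these hold both 2-fold differences of complex IV. In sacCer2 the genes lie on chromosome 13 (*COX7*, 778944-779126, minus strand), chromosome 14 (*COX5A*, 531727-532188, plus strand) and chromosome 9 (*COX5B*, 155219-155762, plus strand). The R64 windows are chr13:779128-779377 (minus strand), chr14:531475-531724 (plus strand) and chr9:154972-155221 (plus strand), in the same order, with capitals as before.
COX7: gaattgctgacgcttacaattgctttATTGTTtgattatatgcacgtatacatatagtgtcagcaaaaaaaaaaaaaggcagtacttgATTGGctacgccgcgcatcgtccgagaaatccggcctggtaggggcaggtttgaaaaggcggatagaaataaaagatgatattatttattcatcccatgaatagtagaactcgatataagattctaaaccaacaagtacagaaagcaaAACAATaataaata
COX5A: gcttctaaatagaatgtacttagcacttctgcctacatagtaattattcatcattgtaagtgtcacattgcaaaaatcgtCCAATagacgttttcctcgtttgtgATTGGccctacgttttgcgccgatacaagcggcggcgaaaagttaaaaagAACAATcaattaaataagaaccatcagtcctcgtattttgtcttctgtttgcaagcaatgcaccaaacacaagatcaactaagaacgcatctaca
COX5B: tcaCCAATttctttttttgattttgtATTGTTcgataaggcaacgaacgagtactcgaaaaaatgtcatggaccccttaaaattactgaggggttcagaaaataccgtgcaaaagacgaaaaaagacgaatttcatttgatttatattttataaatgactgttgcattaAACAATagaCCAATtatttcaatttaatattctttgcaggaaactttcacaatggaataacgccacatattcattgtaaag
All 3 windows held both motifs. CCAAT began 162 bases before the start codon of *COX7*, 170 and 145 bases before that of *COX5A*, and 247 and 72 bases before that of *COX5B*. The ATTGTT core began at 224 and 14 bases in *COX7*, at 95 bases in *COX5A* and at 224 and 81 bases in *COX5B*.

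The ATP synthase genes were spread around a ratio of 1, with a median log2 ratio of -0.01, 6 above 0 and 7 below. They took 1.56% of gene reads in ZK2 and 1.39% in BYZ1. On the TMM scale the median was 0.17, and *ATP1* and *ATP7* changed sign.

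Among the subunits of the catalytic F1 head, the beta subunit gene was the one of highest level. *ATP2*, which encodes beta, had 4789 RPKM in ZK2 and 3354 RPKM in BYZ1, the highest of the 36 genes in both strains, at a ratio of 1.43 (1.40 to 1.45). *ATP1*, which encodes alpha, had 1934 RPKM in ZK2 and 1946 RPKM in BYZ1, and the interval of its ratio included 1 (0.971 to 1.02). The alpha and beta subunits are present in equal number in the enzyme, while their transcripts were not at equal levels in either strain. *ATP3*, which encodes the rotating gamma subunit, had 1028 RPKM in ZK2 and 1554 RPKM in BYZ1, a ratio of 0.661 (0.636 to 0.687). *ATP15*, which encodes epsilon, went the other way, with 1976 RPKM in ZK2 and 1246 RPKM in BYZ1 and a ratio of 1.59 (1.47 to 1.71). Delta, encoded by *ATP16*, had 932 RPKM in ZK2 and 1093 RPKM in BYZ1. The 3 subunits of the central stalk, gamma, delta and epsilon, were therefore not shifted alike, with log2 ratios of -0.60, -0.23 and 0.66.

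In the peripheral stalk, which holds the head still, 1 of 4 genes was higher by a fold of 1.5 (16.1% of all genes) and none was lower by it. *ATP5*, which encodes the oligomycin sensitivity-conferring protein at the top of the stalk, had 1294 RPKM in ZK2 and 849 RPKM in BYZ1, a ratio of 1.52 (1.45 to 1.60). *ATP4*, which encodes subunit b, had 661 RPKM in ZK2 and 648 RPKM in BYZ1. *ATP7*, which encodes subunit d, had 1394 RPKM in ZK2 and 1435 RPKM in BYZ1. The intervals of both ratios included 1. *ATP14*, which encodes subunit h, had 1114 RPKM in ZK2 and 1296 RPKM in BYZ1, a log2 ratio of -0.22.

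*ATP20* showed the largest ratio of the ATP synthase genes. It encodes subunit g, a membrane subunit that takes part in joining 2 synthase units into a dimer. It had 282 RPKM in ZK2 (449 reads) and 123 RPKM in BYZ1 (201 reads), the lowest of the 13 genes in both strains. Its ratio was 2.29 (1.94 to 2.72), a log2 ratio of 1.19, or 1.36 relative to the median of all genes. *ATP17*, which encodes the membrane subunit f, had 766 RPKM in ZK2 and 701 RPKM in BYZ1, a log2 ratio of 0.13.

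*ATP20* lies on chromosome 16 of sacCer2 (599867-600214, plus strand). Its upstream window, shown because it is the other gene higher by a fold of 2, is chr16:599620-599869 (plus strand) in R64.
ATP20: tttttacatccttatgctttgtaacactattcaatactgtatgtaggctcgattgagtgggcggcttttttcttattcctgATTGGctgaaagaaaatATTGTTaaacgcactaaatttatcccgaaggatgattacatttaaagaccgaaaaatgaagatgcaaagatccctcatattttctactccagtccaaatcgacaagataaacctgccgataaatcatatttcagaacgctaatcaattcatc
It held CCAAT at 169 bases and ATTGTT at 152 bases before the start codon. *COX7* and *ATP20* both had a CCAAT box on the strand opposite to the gene, at 162 and 169 bases. That placement was not particular to them. *QCR6*, *COX5A*, *COX6*, *COX9*, *ATP2*, *ATP15*, *ATP4* and *ATP7*, none of them past a fold of 2, had a box on that strand too.

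The genes of the F1 inhibitors, which limit ATP hydrolysis when the proton gradient is lost, were not shifted alike. *STF1* had 1140 RPKM in ZK2 (1360 reads) and 2248 RPKM in BYZ1 (2750 reads), a ratio of 0.507 (0.475 to 0.541) and a log2 ratio of -0.98, just inside the 2-fold limit. *INH1* had 739 RPKM in ZK2 and 864 RPKM in BYZ1. Its log2 ratio of -0.23 was close to the -0.17 of the median gene, and was -0.05 on the TMM scale. In BYZ1 *STF1* was the highest ATP synthase gene after *ATP2*, and in ZK2 it followed *ATP2*, *ATP15*, *ATP1*, *ATP7* and *ATP5*.

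**Figure D4:**
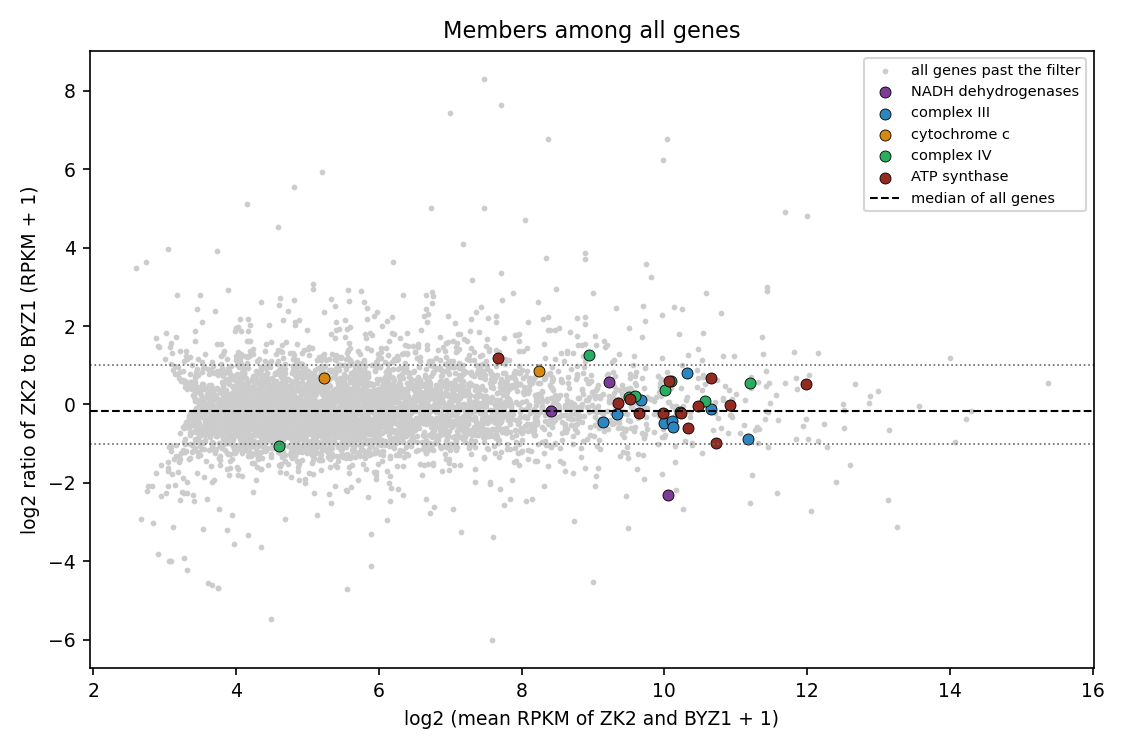
Log2 ratio of ZK2 to BYZ1 (RPKM + 1) against the log2 of the mean RPKM of both strains plus 1, for the 5080 genes tested (grey) and the 36 genes coloured by complex. The dashed line is the median of all genes, at -0.17, and the dotted lines mark a fold of 2. Most of the 36 lie at the right, among genes of high level, and within the dotted lines, and *NDE2* lies well below them.

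The levels of the 36 genes in one strain followed those in the other. Across the 36 genes, which are not independent replicates, log2 levels in ZK2 and BYZ1 had a Pearson r of 0.89 and a Spearman rho of 0.79, beside 0.88 and 0.87 over all genes tested. The genes are short, and the ratio moved with length over all genes, with a median log2 ratio of -0.01 in genes of up to 300 bp and -0.36 in genes over 2400 bp. Of the 36, 10 were up to 300 bp long, with a median of 0.11, and 14 were over 300 and up to 600 bp, with a median of 0.04, where all genes of that class had -0.11. The part of length in the differences was not tested. At least 95% of the coding length was covered by reads in 35 of the 36 genes in ZK2 and in 33 in BYZ1, and the lowest, *COX5B*, had 94.1% in ZK2 and 90.6% in BYZ1. How far the sequence of ZK2 departs from the reference at these genes was not tested.

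Complex II, which carries electrons from succinate to ubiquinone, was split. *SDH3* had 4504 RPKM in ZK2 and 2821 RPKM in BYZ1, and *SDH1*, the flavoprotein gene, 1800 RPKM in ZK2 and 1249 RPKM in BYZ1. *SDH2*, the iron-sulfur subunit gene, had 2018 RPKM in ZK2 and 3111 RPKM in BYZ1, and *SDH4* 1519 RPKM in ZK2 and 1927 RPKM in BYZ1. The median log2 ratio was 0.09, with no gene past a fold of 2. How far the region of chromosome 4 amplified in BYZ1 enters the ratio of *SDH4* was not tested. Other routes into the chain were at or below a ratio of 1. *GUT2*, the mitochondrial glycerol-3-phosphate dehydrogenase gene, had 465 RPKM in ZK2 and 1113 RPKM in BYZ1, a ratio of 0.418 (0.403 to 0.433). The lactate dehydrogenase genes *DLD1* and *CYB2* had log2 ratios of -0.31 and -0.05, the second of which changed sign on the TMM scale.

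Of 4 further ATP synthase genes, 1 was lower by a fold of 2 (10.3% of all genes), and none was on the TMM scale. *STF2*, whose product is associated with the F1 inhibitors, had 643 RPKM in ZK2 and 1291 RPKM in BYZ1, a ratio of 0.498 (0.456 to 0.543). *ATP19*, a small membrane subunit, had 503 RPKM in ZK2 and 854 RPKM in BYZ1. *STF1*, *STF2* and *ATP19* were all lower in ZK2. *TIM11*, which encodes the dimer subunit e, was lower by less, with a log2 ratio of -0.21, while *ATP18* had one of 0.22. The carriers of ADP, ATP and phosphate had a median of 0.09. The phosphate carrier gene *MIR1* had 1211 RPKM in ZK2 and 775 RPKM in BYZ1, the main ADP/ATP carrier gene *PET9* had a log2 ratio of 0.06, and *PIC2* and *AAC1* had 0.12 and -0.23.

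Of the 26 tested genes of complex IV assembly, 2 were higher by a fold of 2 (7.91% of all genes) and 1 was lower (10.3% of all genes). Their median log2 ratio was 0.22. On the TMM scale 5 were higher and none was lower, where 536 and 339 of 5069 genes in all were. *COX15*, which is needed to make heme a, the heme of complex IV, had 555 RPKM in ZK2 (3707 reads) and 149 RPKM in BYZ1 (1018 reads). Its ratio of 3.73 (3.48 to 4.01) exceeded that of every one of the 36 genes. *CMC1* had 38.4 RPKM in ZK2 and 17.8 RPKM in BYZ1, on 59 and 28 reads. *OXA1*, an insertase of the inner membrane, had 30.9 RPKM in ZK2 and 63.2 RPKM in BYZ1, and *PET122*, a translation activator, had a log2 ratio of -0.77.

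No tested gene of complex III assembly (7 genes), ATP synthase assembly (10 genes) or heme attachment to cytochromes c and c1 (3 genes) reached a fold of 2. Their median log2 ratios were -0.44, -0.11 and -0.21, and that of ATP synthase assembly changed sign on the TMM scale (0.14) and with the median of gene ratios as scale (0.06). In complex III assembly *CBP4* had 142 RPKM in ZK2 and 255 RPKM in BYZ1 and *CBS2* had a log2 ratio of -0.57, while *CBP3* and *CBP6* had 0.48 and 0.17. How far the region of chromosome 4 amplified in BYZ1 enters the ratio of *CBS2* was not tested. In ATP synthase assembly *ATP12* and *AEP2* had log2 ratios of 0.47 and 0.18, and *ATP10* and *ATP11* had -0.73 and -0.36. The heme lyase genes *CYC3* and *CYT2* had -0.21 and 0.09, and *CYC2*, which acts with them, had -0.47. The intervals of the ratios of *CBP6*, *AEP2*, *CYC3* and *CYT2* included 1. Genes of coenzyme Q synthesis were split, with a median of -0.10 (0.07 on the TMM scale). *COQ2*, which attaches the isoprenoid tail, had 22.9 RPKM in ZK2 and 8.77 RPKM in BYZ1, and *COQ9* had a log2 ratio of 0.77. *COQ4* had 165 RPKM in ZK2 and 333 RPKM in BYZ1, a log2 ratio of -1.01, and *COQ8*, listed as *ABC1*, had -0.73. How far the amplified region of BYZ1 enters the ratio of *COQ4* was not tested either.

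**Figure D5:**
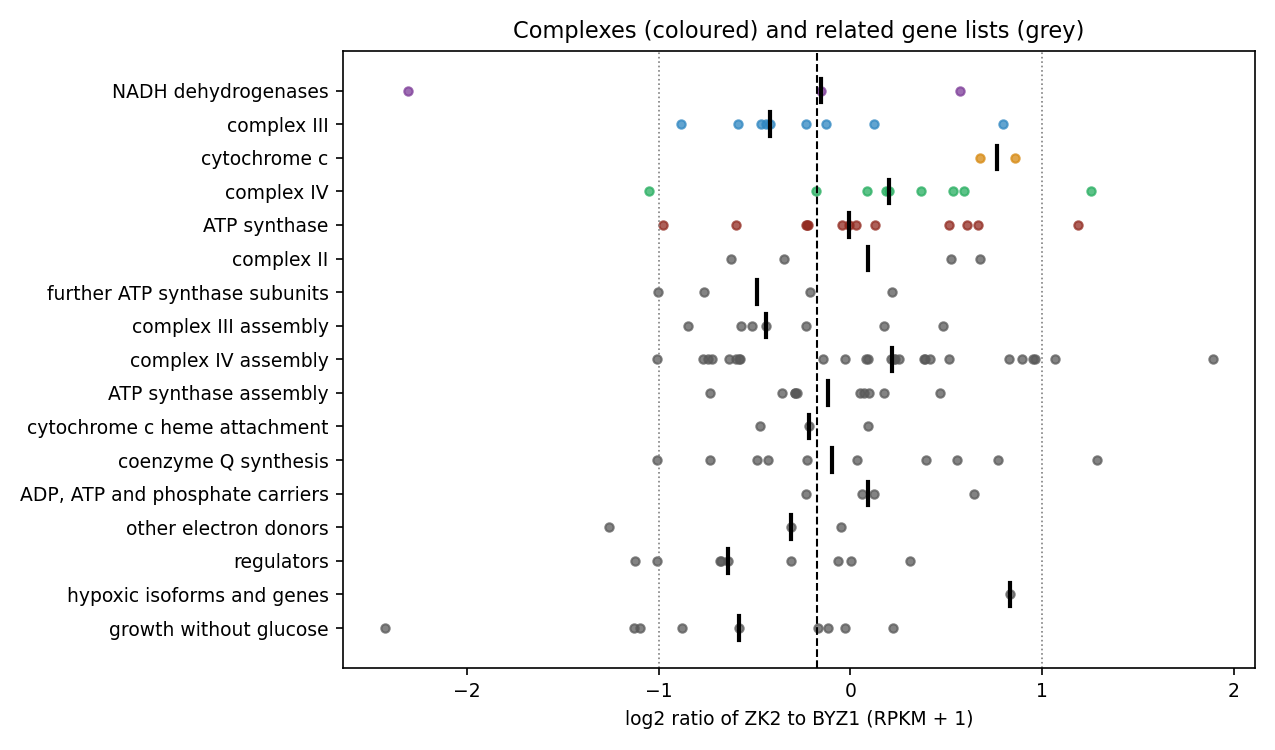
Log2 ratio of ZK2 to BYZ1 (RPKM + 1) of each tested gene of the 5 groups of the respiratory list (coloured) and of 12 related lists (grey), with the median of each as a black bar. The dashed line is the median of all genes and the dotted lines mark a fold of 2. Among the 5 groups only the median of complex III lies to the left of the dashed line. Of the related lists, those of further ATP synthase subunits, complex III assembly, heme attachment, other electron donors, regulators and growth without glucose do. All other medians lie to its right.

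Regulators of the respiratory genes had a median log2 ratio of -0.64, with 7 of 9 below 0 (6 on the TMM scale, where *HAP2* changed sign), beside 3038 of all 5080 genes. Lower by a fold of 2, where 10.3% of all genes were, were *HAP4* and *ROX1*, neither of which passed that limit on the TMM scale. *HAP4*, the activating and glucose-regulated subunit of the Hap2/3/4/5 complex, had 138 RPKM in ZK2 (1054 reads) and 303 RPKM in BYZ1 (2363 reads), a ratio of 0.457 (0.425 to 0.492). *ROX1*, the repressor of hypoxic genes, had 146 RPKM in ZK2 and 295 RPKM in BYZ1, a ratio of 0.496 (0.454 to 0.542). The DNA-binding subunits of the Hap complex, *HAP2*, *HAP3* and *HAP5*, had log2 ratios of -0.06, -0.31 and 0.31. The intervals of all these ratios included 1 (0.810 to 1.13, 0.581 to 1.10 and 0.907 to 1.74). *HAP1*, the heme-responsive activator of *CYC1* and *CYC7*, had 138 RPKM in ZK2 and 215 RPKM in BYZ1. In S288c *HAP1* is known to be interrupted by a Ty1 element near its end. *MOT3*, a corepressor of hypoxic genes, and *CAT8*, an activator of gluconeogenic genes, had log2 ratios of -0.67 and -0.68, and *ADR1*, an activator of genes of ethanol use, had 0.00.

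Of the other hypoxic genes, 3 of 5 had at most 5 reads in either strain. *ANB1* had 3 reads in ZK2 and 1 in BYZ1, *AAC3* had 4 in each, and *DAN1* had 1 in ZK2 and 5 in BYZ1, where no difference was detectable. *TIR1* had 21 reads in ZK2 and 14 in BYZ1. *HEM13*, a heme synthesis gene that Rox1 represses, was the only one of the 5 past the filter, with 108 RPKM in ZK2 and 60.3 RPKM in BYZ1, a ratio of 1.80 (1.55 to 2.09).

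Genes of growth without glucose differed between the libraries as well. They took 3.76% of gene reads in ZK2 and 5.99% in BYZ1. *ADH2* alone held 13436 of their 172067 reads in ZK2 and 74226 of 280956 in BYZ1. The list had a median log2 ratio of -0.58, with 8 of 9 genes below 0 and 3 lower by a fold of 2 (10.3% of all genes). On the TMM scale the median was -0.41, with 5 of 9 below 0 and 1 lower by a fold of 2. *ADH2*, whose product turns ethanol back into acetaldehyde, had 2807 RPKM in ZK2 and 15126 RPKM in BYZ1, a ratio of 0.186 (0.182 to 0.189). The carnitine acetyltransferase gene *CAT2* had 343 RPKM in ZK2 and 752 RPKM in BYZ1. *PCK1*, the gluconeogenic carboxykinase gene, and *JEN1*, the lactate permease gene, had log2 ratios of 0.22 and -0.03. *JEN1*, *FBP1* and *ICL1* of this list changed sign on the TMM scale. The part of the stage of glucose use in the differences of the 36 genes was not tested.

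The CCAAT box was read in the 250 bases before the start codon of all 6007 nuclear coding genes of R64, on both strands. It was found in 28 of the 36 windows (77.8%) and in 35.4% of all windows. By group it was found in 2 of 3 NADH dehydrogenases, 7 of 9 genes of complex III, 8 of 9 of complex IV and 11 of 13 of the ATP synthase, and in neither cytochrome c gene. The longer ACCAAT, a search added after the data were seen, was in 47.2% of the 36 and 12.8% of all windows. ATTGTT was in 16 of the 36 (44.4%) and in 28.7% of all. In 1 place among the 36 genes a CCAAT box shared bases with an ATTGTT.

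Boxes of the 36 genes tended to lie far from the start codon and on the gene's own strand. Of their 38 boxes, 81.6% began over 140 bases before the start codon, a limit set after the positions were seen, against 46.3% of the 2624 boxes of all genes. The median distances were 187 and 133 bases, and 73.7% and 47.8% of boxes read on the gene's strand. The motif of Hap1, which is CGG, any 3 bases, TA, any base and CGG, was in 1 of the 36 windows, that of *QCR6*, and in 6 of all 6007. A match of letters is no evidence of binding, and letters missing from these windows may lie further upstream.

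Genes with and without the box overlapped in their ratios. The 28 genes with a CCAAT box had a median log2 ratio of 0.06, with 15 higher and 13 lower in ZK2, and the 8 without had -0.23, with 3 higher and 5 lower. The genes without a box were *NDE2*, *COR1*, *CYT1*, *CYC1*, *CYC7*, *COX4*, *ATP1* and *STF1*, which include the lowest ratio of the list and 3 of the 8 genes higher by a fold of 1.5. Genes with a box ranged from -1.05 for *COX5B* to 1.25 for *COX7*.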

How the data were processed

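Poly(A) RNA of ZK2 and BYZ1 was sequenced and 1 table per strain was deposited. For BYZ1 the authors removed low-quality and adapter reads and aligned the rest to S288c genes with SOAPAligner. The paper does not name ZK2, and for it the sources used here give no aligner. The deposited read counts are uniquely mapped reads per gene, not normalized, with no stated strand setting and with genes without a read not listed. The deposited RPKM divides that count by coding length and by the total of gene reads. The deposited coverage percent per gene was used as given. The submitters' processing notes name sacCer2, and gene coordinates are those of the BYZ1 table. Promoters were read from R64 by gene, since both builds give all 36 coding lengths alike, and no sacCer2 position was used in R64.

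Each strain had 1 library, so no test, p-value or standard error was computed. Differences were log2 ratios of RPKM plus a pseudocount of 1, over genes that reached an RPKM of 10 in either library, a scale that understates the change of weakly expressed genes. Levels had exact Poisson 95% intervals, ratios exact conditional binomial (Clopper-Pearson) 95% intervals, and 2 genes were called not separated where their intervals overlapped. Zero counts had a floor of 3 reads. All 36 genes were named, all regulators, and the 2 highest and 2 lowest of each other list, and single hypoxic genes were named with their reads. Of 101 list entries, 5 were matched through another symbol. The 36 genes and the lists were chosen with earlier results of these data known. Alternatives were a fold of 1.5, covered length, pseudocounts of 0.1 and 5, an RPKM minimum of 50 or none, TMM factors, the median of gene ratios as scale, and totals that leave out the 10 strongest genes by RPKM. Only single-gene ratios, their intervals and fold calls were tested on simulated data. These were Poisson counts, which hold neither culture-to-culture spread nor PCR copies. The tools were Python 3.11.15, NumPy 2.4.6, pandas 2.3.3, SciPy 1.17.1, Matplotlib 3.10.9, R 4.3.3 and edgeR 4.0.16 (TMM factors only).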

Additional observations from a re-analysis of the deposited data

How the results depend on the processing

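No paired analysis was possible because each strain has 1 library, and no library could be left out. TMM factors (0.941 for ZK2, 1.06 for BYZ1) moved the median of all genes by 0.18 and the share of higher calls among all genes from 43.4% to 61.3%, and the median of gene ratios as scale gave 61.0%, with 341 genes lower beside 524. On the TMM scale the median log2 ratio of the 36 genes was 0.18, of the NADH dehydrogenases 0.019, of complex III -0.24, of complex IV 0.38 and of the ATP synthase 0.17. With the median of gene ratios as scale these were 0.19, 0.020, -0.24, 0.38 and 0.17. Relative to the median of all genes, the 36 genes stood 0.18 higher without rescaling, 0.18 higher with TMM and 0.19 higher with the median scale. Under both scales *NDI1*, *QCR10*, *ATP1* and *ATP7* changed sign, and 3 of the 4 genes past a fold of 2 stayed past it. The count lower by a fold of 2 was 1 instead of 2 with TMM, with the median scale, with a pseudocount of 5 and with an RPKM of 50 or more, each time without *COX5B*, which the last setting does not test. At a fold of 1.5, 8 were higher and 5 lower. Totals without the 10 genes of highest RPKM gave medians of -0.010 for the 36 genes and -0.029 for the ATP synthase, and multiplied every level by 1.13 in ZK2 and 1.14 in BYZ1. An RPKM of 50 or more gave complex IV a median of 0.29, left 274 of all genes lower by a fold of 2, and put the 36 genes 0.13 above the median of all genes. Covered length in place of coding length changed no call among the 36 genes, gave 357 higher and 463 lower of 5361 genes in all, and raised levels by up to 1.06 times in ZK2 and 1.10 times in BYZ1. Depth limits *COX5B*, *CYC7*, *ANB1*, *AAC3*, *DAN1* and *TIR1*, and also *CBP6*, *CMC1*, *PET122*, *HAP3* and *HAP5*, each with under 100 reads in both strains.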

Other observations

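Few reads came from the mitochondrially encoded partners of these complexes in the poly(A) libraries. *COX1* had 1 read in ZK2 and 0 in BYZ1, *COX2* had 0 in ZK2 and 1 in BYZ1, and *OLI1*, the ATP synthase ring subunit gene, had 12 reads in ZK2 and 0 in BYZ1. A count of 0 allows up to 2.77 RPKM for *OLI1* in BYZ1 (3 reads). *COX3*, *COB*, *ATP6* and *ATP8* were listed in neither table, which lists only genes with a read.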
